A study of Mus musculus with 287 samples.

Results

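Ttr-expressing cells were compared with cells in which no Ttr read was counted. A cell was called Ttr-expressing when its Ttr exon count, divided by the cell's total exon count and multiplied by 1000000 (CPM), was above 10, and it was placed in the comparison class, called Ttr-zero here, when its Ttr exon count was 0. Of all libraries 3 carry no clone label and 37 labelled ones had an exon count in fewer than 1000 genes, which leaves 90, 80 and 77 kept cells on plates 1, 2 and 3. Among these 52 (21.1%, 95% Wilson interval 16.4% to 26.6%) were Ttr-expressing, and 66, 45 and 68 on the 3 plates were Ttr-zero. The remaining 16 had Ttr reads at or below 10 CPM and belong to neither class. Both classes were chosen by their measured Ttr exon counts, so Ttr levels are given as a description and are not tested.

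The cells came from mouse cerebral organoids grown from embryonic stem cells of genotype MADM-11GT/TG;Emx1-CreER+/-, with a Wnt inhibitor (IWR1) in the first medium. Both classes share that genotype, a dose of 60 nM 4-hydroxytamoxifen (4-OHT) at day 13 and collection at day 20. In MADM (mosaic analysis with double markers) recombination between homologous chromosomes leaves dividing cells and their progeny green or red, and here it could start only in cells that express Emx1, a gene of dorsal forebrain progenitors, so the labelled cells are not a sample of the whole organoid. Single green or red cells, which the collection protocol describes as neurons, were drawn into a glass pipette under the microscope and sequenced with Smart-seq3. Each library is 1 cell, the labels sort the cells into 46 SN and 22 N clones on 3 plates, the meaning of SN and N is not stated, and no organoid is named, so clones may share an organoid and p-values over clones may be too small.

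Ttr encodes transthyretin, a secreted protein that carries thyroxine and retinol-binding protein. In the brain its best known source is the choroid plexus epithelium, the secretory sheet that makes cerebrospinal fluid and that arises from the dorsal midline beside the cortical hem, a Wnt- and BMP-producing border of the cortex. Outside the brain it is made by the liver and the visceral endoderm of the yolk sac, and the retinal pigment epithelium makes it as well. Choroid plexus cells carry Ttr together with transporters and channels of the fluid-secreting surface (Folr1, Clic6, Kcnj13, Aqp1, Slc4a5), the co-receptor Kl and the transcription factor Otx2.

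Ttr ranged widely among the 52 cells. The lowest value was 11.4 CPM, the median 289.6 CPM and the highest 3383 CPM, and the quartiles were 124.1 and 668 CPM. Among the 52 cells 40 were above 100 CPM and 7 were above 1000 CPM. The Ttr reads behind these values ran from 6 to 12171 per cell, with a median of 649.5, and no Ttr-expressing cell rested on 3 or fewer reads. The 52 cells held 99.8% of the 86499 Ttr exon reads of all kept cells. Ranked by exon counts within its own cell, Ttr stood at place 595 in the median cell and at place 23 in the best, and it was among the 100 leading genes in 6 cells. Just inside the threshold lay a cell of clone 5 at 11.4 CPM (6 reads), followed by cells at 14.6 and 23.1 CPM, and just outside lay cells at 7.04 CPM (35 reads) and 6.2005 CPM. Few cells therefore lay close to the threshold on either side.

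A Ttr count of 0 did not carry the same weight in every cell. Total exon counts ran from 24826 to 13040432 in Ttr-expressing cells (median 3052514.5) and from 6171 to 12162373 in Ttr-zero cells (median 1365828). A median of 7955 genes was counted in the first class and of 4678 in the second. With 3 counts as the limit that a count of 0 allows, which covers counting error only, a Ttr-zero cell could hold up to 2.196 CPM in the median. That limit ran from 0.247 to 486 CPM, and in 39 of them (21.8%), all below 300000 exon counts, a count of 0 allows a Ttr level above the 10 CPM threshold. Ttr-expressing cells this shallow were found as well, 5 of them, with 24826 to 236391 exon counts and Ttr at 141.98 to 1329 CPM. Because of this gap in depth, shares of cells with a gene are given below at a fixed depth as well, after each cell had been thinned at random to 100000 exon counts. The 4 Ttr-expressing and 18 Ttr-zero cells with fewer counts were left out of that measure, which leaves 48 Ttr-expressing cells, 31 Ttr-zero cells of clones that also hold Ttr-expressing cells and 130 Ttr-zero cells of other clones.

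Ttr-expressing cells were gathered in a minority of clones. They lay in 24 of the 68 clones with a kept cell, and in 40 clones no kept cell had any Ttr read. Clone 17 (type N, plate 1) held the most, with all 9 of its kept cells Ttr-expressing at 14.6 to 3383 CPM and a median of 994 CPM. Clone 45 (N, plates 2 and 3) had 8 of 10 cells at 30.1 to 422 CPM, and clone 24 (N, plate 2) had all 5 cells at 84.02 to 1026 CPM. These 3 clones together held 22 of the 52 cells (42.3%). In 6 clones every kept cell was Ttr-expressing, and 5 of these had at least 2 kept cells: clones 17, 24, 25, 29 and 38. A single Ttr-expressing cell was held by 13 clones, such as clone 57 with 1 of 5 at 206.1 CPM and clone 40 with 1 of 4 at 374 CPM. Clone 28, with 1 kept cell, is counted both among these 13 and among the 6. In 15 clones the classes lay side by side, with 25 Ttr-expressing and 33 Ttr-zero cells, and 12 of the 16 cells at or below 10 CPM were in clones that also held a Ttr-expressing cell.

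**Figure D1:**
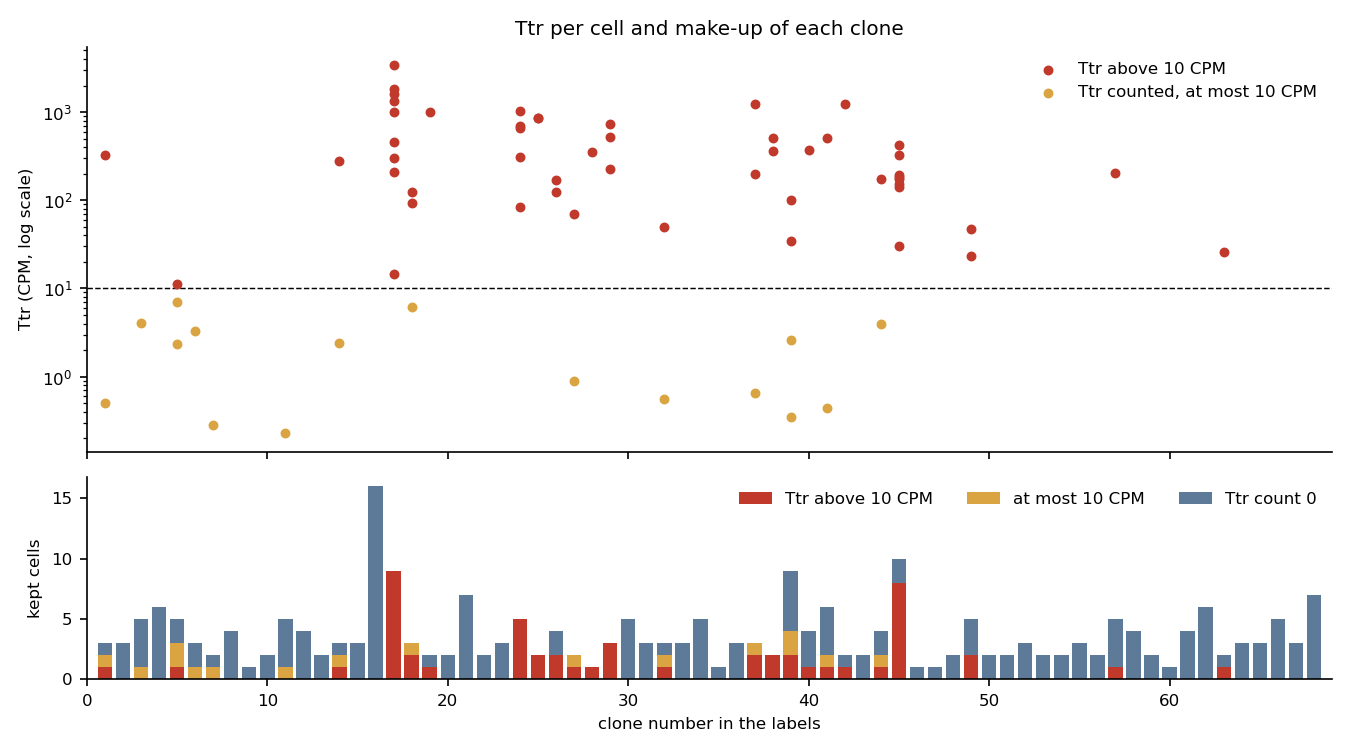
Top, Ttr in CPM on a log scale for each kept cell with a Ttr read, by clone number, with the 10 CPM threshold dashed; bottom, the number of kept cells of each clone by Ttr class. Clones 17, 24 and 45 hold 22 of the 52 Ttr-expressing cells, and from clone 46 on 4 of 70 cells are Ttr-expressing.

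The clones with Ttr lay close together in the numbering of the labels, whose order is not explained. Clones 17 to 19 had 12 Ttr-expressing cells of 14 kept (85.7%), clones 24 to 29 had 14 of 17 (82.4%) and clones 37 to 45 had 18 of 42 (42.9%). By contrast clones 1 to 16 had 3 of 67 (4.48%), clones 20 to 23 had 0 of 14, clones 30 to 36 had 1 of 23 (4.35%) and clones 46 to 68 had 4 of 70 (5.71%). These stretches were drawn after the values had been seen and are a description. Median exon totals were 2300292 in clones 17 to 19, 3338722 in clones 24 to 29 and 3978564.5 in clones 37 to 45, against 1402288 in clones 1 to 16, 917007 in clones 30 to 36 and 1419914 in clones 46 to 68. Clones 20 to 23, with no Ttr-expressing cell, were at 2522311.5 and so deeper than clones 17 to 19. The part of depth in this pattern was not tested.

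Between the labelled clone types the share of Ttr-expressing cells did not pass the threshold. Over clones with at least 2 kept cells the mean share was 14.4% ± 27.1 (SD, n = 42 clones) in SN and 31.4% ± 37.6 (SD, n = 20 clones) in N, a difference of -17.1 percentage points (two-sided permutation test with 100000 resamples, p = 0.0548, adjusted over this and the colour test 0.110). The median share was 0% in SN and 18.3% in N clones. Within plates the difference was -6.44 points on plate 1 (exact permutation p = 0.756), -26.3 on plate 2 (exact permutation p = 0.152) and -22.7 on plate 3 (exact permutation p = 0.0234), where none of the 13 SN clones had a Ttr-expressing cell and the 8 N clones had a mean of 22.7%. Leaving out clone 17 gave -13.5 points (permutation p = 0.117) and leaving out clone 29, an SN clone with 3 of 3 cells, gave -19.2 (permutation p = 0.0241). The removal of any 1 of 17 clones took p below 0.05.

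Green and red cells of the same clone did not differ beyond the spread between clones. In the 45 clones with kept cells of both colours the mean share was 18.3% ± 34.2 (SD) in green and 16.4% ± 34.7 (SD) in red cells (difference 1.96 points, SD 36.8, two-sided sign-flip permutation test, p = 0.740). It was higher in green cells in 8 clones and in red cells in 7, and 5 clones held Ttr-expressing cells of both colours. By plate, 15 of 90 kept cells (16.7%) were Ttr-expressing on plate 1, 28 of 80 (35.0%) on plate 2 and 9 of 77 (11.7%) on plate 3.

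The Ttr-expressing cells carried the genes of cortical neurons and their progenitors. Stmn2, a microtubule regulator of growing axons, Dcx and Mapt, microtubule proteins of young neurons, and Gap43, a growth cone protein, were all 4 counted in 51 of the 52 cells (98.1%), against 90.5% of Ttr-zero cells. Median Stmn2 was 3559 CPM in Ttr-expressing and 2453 CPM in Ttr-zero cells. Other neuron genes had lower medians with Ttr: Neurod6 123.5 against 283.2 CPM, Tubb3 652.7 against 879.8 and Bcl11b 44.7 against 70.3. The summed level of the excitatory neuron list had medians of 7686 and 7562 CPM. Fabp7, a lipid-binding protein of radial glia, was counted in 51 cells at a median of 1675 CPM, against 1374 CPM in Ttr-zero cells. Its mean was lower with Ttr, 1720 against 2448 CPM. Emx1, the gene that drives the Cre, was counted in 18 of 52 Ttr-expressing (34.6%) and in 59 Ttr-zero cells (33.0%).

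The cell with the most Ttr shows this mixture in a single library. It came from clone 17, had 1229973 exon counts, and held Ttr at 3383 CPM (4161 exon reads), Stmn2 at 10707 CPM, Fabp7 at 573 CPM and Neurod6, a transcription factor of cortical projection neurons, at 163.4 CPM. Folr1, Clic6, Kl, Kcnj13, Otx2 and Aqp1 all had a count of 0 there, and 2 of the 34 other choroid plexus genes were counted, with a summed level of 641 CPM. Lmx1a, a transcription factor of roof plate and hem, was at 214.6 CPM in this cell. In each of the 8 cells with the most Ttr (994 to 3383 CPM) Folr1, Clic6, Kl and Kcnj13 were at 0, Otx2 was counted in 3 and Aqp1 in 1, and Stmn2 ran from 3421 to 12286 CPM.

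Other choroid plexus genes were scarce in both classes and somewhat more often counted in Ttr-expressing cells. Of the 34 members besides Ttr, 33 were counted in at least 1 Ttr-expressing cell and all 34 in at least 1 Ttr-zero cell, and Cldn2, a tight junction protein of leaky epithelia, was the member with no count in the former. A Ttr-expressing cell had a median of 6 members counted (range 1 to 16) and a Ttr-zero cell 3 (range 0 to 19). At 100000 counts per cell the medians were 4 and 2 members. At that depth 27 members had a higher share of Ttr-expressing than of Ttr-zero cells and 6 a lower one. Beside this, 62.9% of all 29995 genes counted at that depth, and 72.5% of the genes counted in at least 10 of the cells compared, had a higher share in Ttr-expressing cells, so most of the list followed the direction of genes at large.

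**Figure D2:**
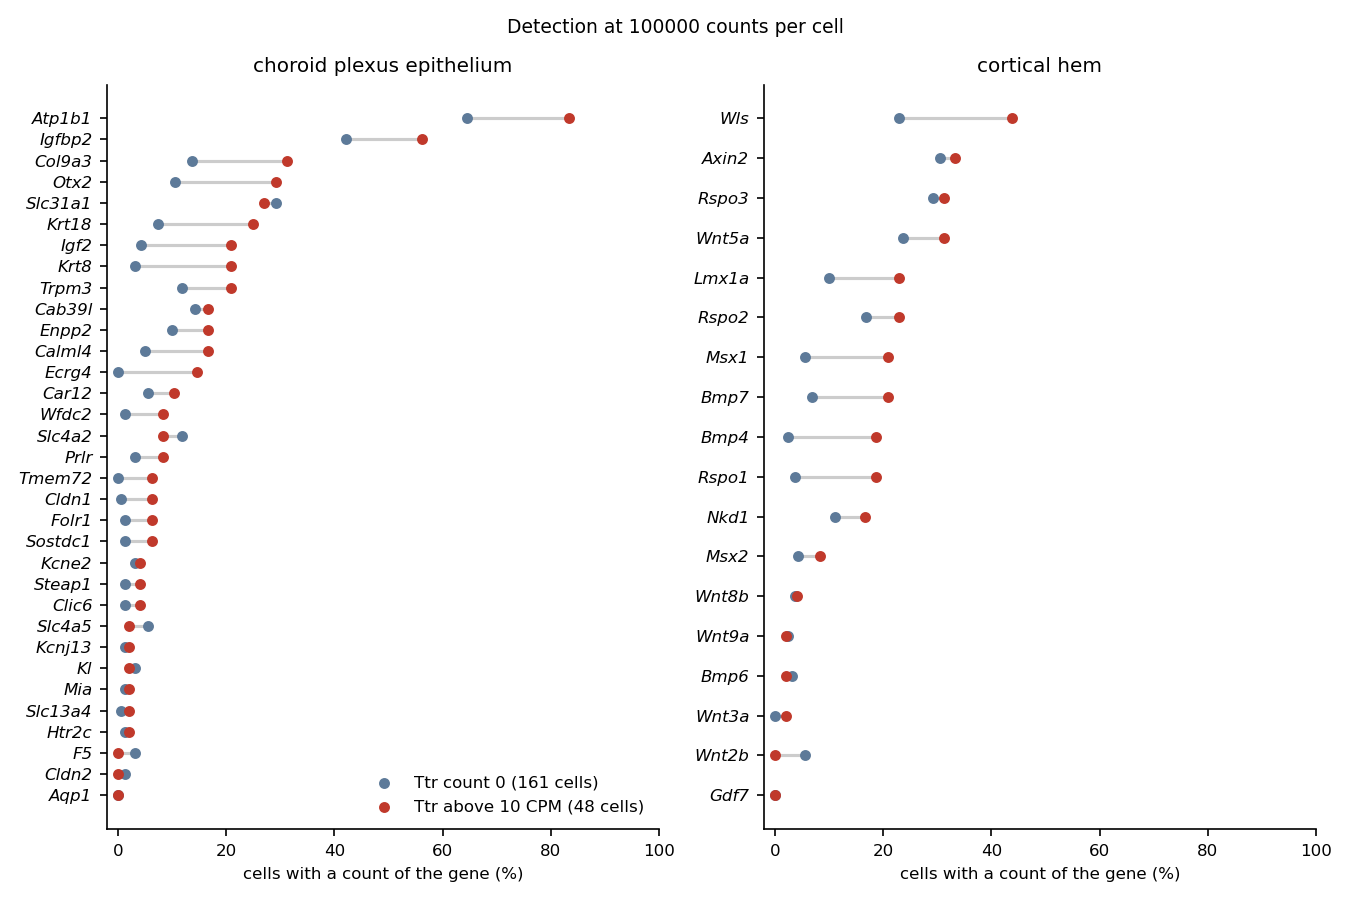
Share of cells with a count of 33 choroid plexus genes (left) and 18 cortical hem genes (right) after thinning every cell to 100000 exon counts, in Ttr-expressing cells (red, 48 cells) and Ttr-zero cells (blue). Folr1, Clic6, Kcnj13, Kl and Aqp1 lie at or below 6.25% in both classes, while Otx2 lies at 29.2% and 10.6%.

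The genes of the fluid-secreting surface were nearly absent. Folr1, the folate receptor that carries folate into cerebrospinal fluid, was counted in 4 Ttr-expressing (7.69%) and 4 Ttr-zero cells (2.23%) and reached 46.1 CPM in the former. The counts that follow are in the same order, at full depth, with the share of each class, since the classes differ in size. Clic6, a chloride channel protein, was counted in 3 (5.77%) and 3 cells (1.68%). Of the potassium channels, Kcnj13 was counted in 2 (3.85%) and 5 (2.79%) and Kcne2 in 4 (7.69%) and 6 (3.35%). The water channel Aqp1 was counted in 4 (7.69%) and 2 (1.12%). The bicarbonate transporter Slc4a5 was counted in 3 (5.77%) and 14 (7.82%) and the sulfate transporter Slc13a4 in 2 (3.85%) and 7 (3.91%). Tmem72 was counted in 7 (13.5%) and 10 (5.59%), Steap1 in 3 (5.77%) and 2 (1.12%) and Kl, the klotho co-receptor, in 5 (9.62%) and 8 (4.47%). The prolactin receptor Prlr was counted in 9 (17.3%) and 21 (11.7%) and the serotonin receptor Htr2c in 2 (3.85%) and 4 (2.23%). Among these genes only Slc4a5 and Slc13a4 had a lower share with Ttr. A few members made up most of the list's signal. Atp1b1, a subunit of the sodium pump that neurons use as well, was counted in 47 Ttr-expressing cells and made up 35.1% of the summed CPM of the list over the class, and Atp1b1, Igfbp2, Krt18 and Col9a3 together made up 64.4%. Slc31a1, a copper transporter, was at 27.1% of thinned Ttr-expressing and 29.2% of thinned Ttr-zero cells, and Slc4a2 at 8.33% and 11.8%, both lower with Ttr.

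A few members stood further apart between the classes at equal depth. Otx2 was counted in 29.2% of thinned Ttr-expressing and 10.6% of thinned Ttr-zero cells. Ecrg4, a secreted peptide precursor of the choroid plexus, was at 14.6% and 0%. At full depth it was counted in 10 Ttr-expressing cells (19.2%) of 6 clones, at up to 186.1 CPM. There it was also counted in 5 Ttr-zero cells (2.79%), at up to 12.2 CPM. The epithelial keratins Krt8 and Krt18 were at 20.8% against 3.11% and at 25.0% against 7.45%. Igf2, a growth factor of the choroid plexus and of mesenchyme, was at 20.8% against 4.35%, Calml4 at 16.7% against 4.97% and the cation channel Trpm3 at 20.8% against 11.8%. Further members were between 0% and 16.7% of thinned Ttr-expressing cells. Wfdc2 was at 8.33% against 1.24%, Cldn1 at 6.25% against 0.621%, Sostdc1 at 6.25% against 1.24% and Mia at 2.08% against 1.24%. Car12 was at 10.4% against 5.59%, Cab39l at 16.7% against 14.3% and Enpp2 at 16.7% against 9.94%. F5 went the other way, at 0% against 3.11%.

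To see whether choroid plexus genes came together in single cells, 13 members were taken (Folr1, Clic6, Kl, Kcnj13, Aqp1, Prlr, Slc4a5, Kcne2, Calml4, Tmem72, F5, Steap1 and Slc13a4). They were picked as those with the fewest other sources among the cell types of the lists, a choice made after the values had been seen. They are not specific to the choroid plexus. At full depth 17 of 52 Ttr-expressing cells had none of them, 19 had 1, 10 had 2 and 6 had at least 3, with a most of 4. Among Ttr-zero cells 33.0% had any and 12 had at least 3, against 67.3% with any among Ttr-expressing cells. The Ttr-zero class is the larger one, so these 12 cells are a smaller share of it than the 6 are of the Ttr-expressing class. The cell with the most, 8 genes with at least 4 reads each, was a Ttr-zero cell. At 100000 counts 50.0% of Ttr-expressing and 19.9% of Ttr-zero cells had any, and 1 and 4 cells had at least 3, again in classes of unequal size. Their summed level had a median of 1.92 CPM in Ttr-expressing cells, 0 CPM in Ttr-zero cells, and maxima of 266.9 and 306 CPM.

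Ttr did not keep a fixed ratio to the rest of the list. The summed CPM of the other 34 members had a median of 340 (range 40.3 to 1241) in Ttr-expressing and 191.8 (range 0 to 3363) in Ttr-zero cells. Ttr exceeded that sum in 26 of the 52 cells, and the ratio of Ttr to the sum ran from 0.0215 to 33.0 with a median of 1.00. Across the 52 cells the Spearman correlation of Ttr with the list's summed CPM was 0.150, with the summed CPM of the hem list 0.00299 and with the cell's exon total -0.0928. The points share clones and libraries, and the coefficients are descriptions.

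Cortical hem genes were counted somewhat more often as well, and at low levels. All 18 members were counted in at least 1 cell of each class. A Ttr-expressing cell had a median of 4 members and a Ttr-zero cell 2, and at 100000 counts the medians were 2 and 1, with 14 members at a higher and 3 at a lower share of Ttr-expressing cells, beside the 72.5% of genes at large given above. Among the ligands, Bmp4 was counted in 18.8% of thinned Ttr-expressing and 2.48% of thinned Ttr-zero cells, Bmp7 in 20.8% and 6.83% and the Wnt enhancer Rspo1 in 18.8% and 3.73%, whereas Wnt5a stood at 31.2% and 23.6%, Rspo3 at 31.2% and 29.2%, Rspo2 at 22.9% and 16.8% and Bmp6 at 2.08% and 3.11%. The Wnt ligands of the list other than Wnt5a were rare: Wnt3a was counted in 1 Ttr-expressing (1.92%) and 1 Ttr-zero cell (0.559%) at full depth. Wnt2b was counted in 2 (3.85%) and 18 (10.1%), Wnt8b in 2 (3.85%) and 11 (6.15%) and Wnt9a in 5 (9.62%) and 9 (5.03%). Gdf7, a roof plate BMP, was counted in 1 (1.92%) and 2 (1.12%). Of the transcription factors, Lmx1a was at 22.9% and 9.94%, Msx1, a BMP target, at 20.8% and 5.59% and Msx2 at 8.33% and 4.35%. Wls, which carries Wnt proteins to the cell surface, was at 43.8% and 23.0%, and the Wnt targets Axin2 and Nkd1 were at 33.3% against 30.4% and at 16.7% against 11.2%.

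Genes of several other lists showed the same tendency at equal depth. All 12 mesenchyme genes were more often counted in Ttr-expressing cells at full depth, where this held for 90.0% of all genes counted in at least 10 of the cells, and 11 were at 100000 counts, with a mean of 3.25 members per thinned cell against 0.938. Among them the collagen gene Col3a1 was at 58.3% and 18.6%, Postn, a matrix protein, at 37.5% and 6.83%, and Acta2, smooth muscle actin, at 33.3% and 11.2%. Summed mesenchyme CPM ran from 0 to 3316 in Ttr-expressing (median 122.5) and from 0 to 1981 in Ttr-zero cells (median 2.59), and 4 of 52 Ttr-expressing against 78 Ttr-zero cells had none of the list. The 11 Cajal-Retzius genes, neurons that arise in part from the hem, had a mean of 5.08 members against 2.74, and the GABAergic list 1.90 against 1.04. Cell cycle genes had 6.42 against 4.64. The part of these other cell types' RNA in the accompanying choroid plexus and hem genes was not tested.

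Genes of other known sources of Ttr were counted at low numbers per cell in both classes. Of 20 visceral endoderm and liver genes a Ttr-expressing cell had a median of 1 counted and a Ttr-zero cell 0, and at 100000 counts the means were 0.604 and 0.205. Gata6, an endoderm transcription factor that mesenchyme uses as well, was at 16.7% and 1.24% of thinned cells. Afp and Alb were each counted in 1 of 52 Ttr-expressing cells and in none of the Ttr-zero cells. Hnf4a was counted in 0 and 2 (1.12%), and Rbp4, the plasma partner of transthyretin, in 7 (13.5%) and 9 (5.03%). Of 12 pigment epithelium and eye field genes the median was 1 in both classes; Rlbp1 was at 18.8% and 14.3% of thinned cells and Rpe65 was at most 0.650 CPM in Ttr-expressing cells. Motile cilia genes, which a ciliated epithelium would carry, had a mean of 1.29 and 0.578 members per thinned cell. Foxj1, their main regulator, was counted in 11 (21.2%) and 23 cells (12.8%) at full depth, and Deup1 in none. Microglia and endothelium genes had 0.688 and 0.323 members, and pluripotency genes 0.167 and 0.0248. In the thyroid hormone and retinol list the means were 3.96 and 2.84 of 18.

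**Figure D3:**
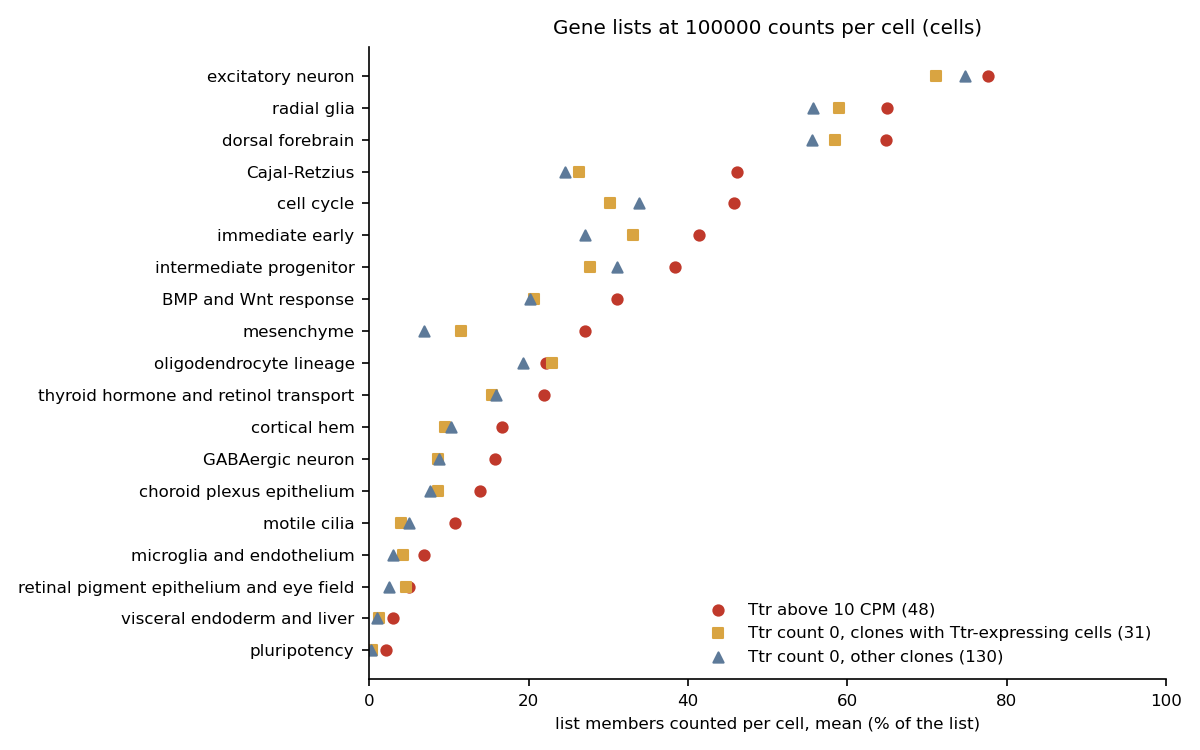
Mean number of members of each gene list counted per cell after thinning to 100000 counts, as a percentage of the list, in Ttr-expressing cells (red circles, 48 cells), Ttr-zero cells of clones that hold Ttr-expressing cells (orange squares, 31 cells) and Ttr-zero cells of the other clones (blue triangles, 130 cells). Every list but the oligodendrocyte lineage has its highest mean in the Ttr-expressing cells, neuron and progenitor lists included, and the choroid plexus list is at 4.75 of 34 members against 2.94 and 2.62.

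The Ttr-zero cells of the same clones were compared next. Ttr-zero cells of clones with Ttr-expressing cells had a mean of 2.94 choroid plexus members at 100000 counts, close to the 2.62 of Ttr-zero cells elsewhere, and Ttr-expressing cells had 4.75. That last mean covers all thinned Ttr-expressing cells, those of clones without a Ttr-zero cell included. Hem members were at 1.71, 1.85 and 3.00 in the same order, and mesenchyme members at 1.39, 0.831 and 3.25. Across the 15 clones with both classes the mean summed CPM of the choroid plexus list was higher in the Ttr-expressing cells in 12, and that of the hem list in 10. For comparison, that of radial glia genes was higher in 12, of excitatory neuron genes in 8, of mesenchyme genes in 7 and of visceral endoderm genes in 4. At 100000 counts, in the 13 clones where both classes could be thinned, members of the choroid plexus list were more numerous in the Ttr-expressing cells in 8 and fewer in 1, with medians of 4 and 2. Hem members were more numerous in 7 and fewer in 5, mesenchyme members in 7 and 4, and radial glia and excitatory neuron members in 9 and 3 each. No list was tested.

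The 3 clones with the most Ttr-expressing cells differed in what accompanied Ttr. In clone 17 the 9 cells had a median of 4 choroid plexus members (range 1 to 13), Otx2 in 3 cells at up to 12.0 CPM, Lmx1a in 3 at up to 214.6 CPM, Bmp4 in 3 at up to 161.1 CPM and Msx1 in none, with Stmn2 at a median of 10668 CPM. Clone 24 had a median of 13 members (range 4 to 16) in 5 cells, Otx2 in 3 at up to 114.5 CPM, Krt8 in 3 at up to 208.1 CPM, Msx1 in 4, Lmx1a in 3 at up to 216.2 CPM and Bmp4 in 4 at up to 46.6 CPM, with Stmn2 between 1353 and 5116 CPM. In clone 45 the 8 cells had a median of 4.5 members (range 2 to 15), Otx2 in none, Lmx1a in 1 and Krt8 in 4. The imprinted RNA H19 was at 510 to 2610 CPM in clone 24 and at 2259 and 2590 CPM in the 2 cells of clone 25, against a median of 39.9 CPM in clone 17. Of these 4 clones, clone 17 had the highest single Ttr value and the highest median (994 CPM), and the median Ttr of clones 24 and 25 was 657 and 859 CPM. The member counts are at full depth, and by summed choroid plexus CPM the medians were 326 in clone 17, 443 in clone 24, 574 in clone 25 and 230.2 in clone 45.

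Ttr intron reads accompanied the exon reads in most cells of the class. They were counted in 40 of 52 Ttr-expressing cells (76.9%), with a median of 14 and up to 322 reads. Summed over the class, introns made up 2.44% of Ttr reads, against 31.5% of all reads in the same cells. The Spearman correlation of Ttr exon and intron reads over the 52 cells was 0.865, both scaling with depth. Of the Ttr-zero cells 10 (5.59%), from 10 clones, had Ttr intron reads, from 1 to 731, without an exon read, and 2 of those clones also held a Ttr-expressing cell. Of the 16 cells at or below 10 CPM, 3 had Ttr intron reads.

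**Figure D4:**
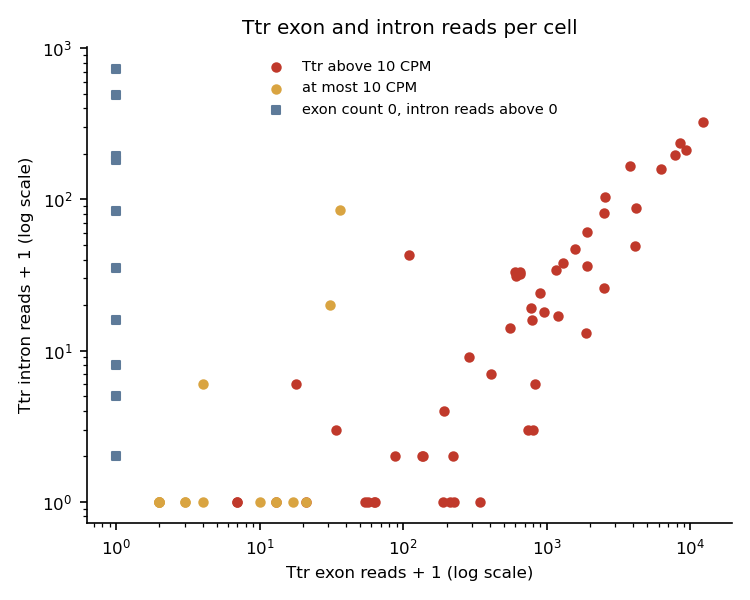
Ttr intron reads against Ttr exon reads per cell, each plus 1 on a log scale, for Ttr-expressing cells (red), cells at or below 10 CPM (orange) and the 10 Ttr-zero cells with Ttr intron reads (blue squares). Intron reads climb with exon reads up to 322 at 12171 exon reads, and the Ttr-zero cells reach 731 intron reads at an exon count of 0.

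Genes at large were compared within clones, on exon counts summed per class in the 15 clones with both classes, with Ttr left out. No gene passed the edgeR quasi-likelihood test with the clone as block (0 of 5746 tested, 0.00%, at a Benjamini-Hochberg adjusted p of 0.05). At an unadjusted p below 0.05 there were 18 genes higher (0.313%) and 22 lower (0.383%) in Ttr-expressing cells, and the smallest adjusted p was 0.947. These shares lie well below what that cut-off gives when no gene differs, so the fit was conservative. A result of 0 calls therefore does not show that the classes are alike. The median log2 fold change over all tested genes was -0.13, with 45.2% above 0. DESeq2 on the same sums called 70 genes (1.22%), 34 higher (0.592%) and 36 lower (0.627%), against 5.17% higher and 6.00% lower at an unadjusted p below 0.05. By comparison limma on the mean log2(CPM+1) of the cells called 3 higher (0.0522%) and 0 lower, against 5.97% higher and 0.557% lower at an unadjusted p below 0.05. The 3 limma calls were also among the 70 of DESeq2. None of the 70 was a choroid plexus or hem gene, and 1, Mcm5, was in any of the lists.

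Few of the accompanying genes were abundant enough to be tested within clones. Of the choroid plexus list Atp1b1 (log2 fold change 0.22 ± 1.70 SE) and Igfbp2 (0.01 ± 2.10) were tested and of the hem list Axin2 (0.20 ± 2.10), with edgeR adjusted p of 1.00 for each. Atp1b1 sums ran from 0 to 223.6 CPM in the Ttr-expressing cells of the 15 clones (median 103.3) and from 0 to 517 CPM in their Ttr-zero cells (median 45.1). They were higher in the Ttr-expressing cells in 8 clones and lower in 7, so the classes overlapped throughout. Otx2, too low for the test, was higher in 7 clones and lower in 0 among the 15, with a median of 0 CPM in both classes. Krt18 and Lmx1a were each higher in 5 and lower in 1.

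Cd63, a tetraspanin of endosomes and secreted vesicles, had the smallest p of all genes in edgeR and limma, and 5 genes came before it in DESeq2. Its summed level in the Ttr-expressing cells ran from 0 to 3396 CPM over the 15 clones (median 539.5) and in the Ttr-zero cells from 0 to 1557 CPM (median 24.7). It was higher with Ttr in 13 clones and lower in 1. The log2 fold change was 2.82 ± 0.75 SE (edgeR p = 0.000165, adjusted p = 0.947). It was past the threshold in DESeq2 (log2 2.88, adjusted p = 0.000511) and in limma (log2 4.79, adjusted p = 0.00223). Over all cells it was counted in 83.3% of thinned Ttr-expressing and 57.1% of thinned Ttr-zero cells. When all clones with either class were compared, with plate as a term and no clone block, its log2 fold change was 0.48 (edgeR adjusted p = 1.00).

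Ift46, an intraflagellar transport protein of cilia, and Maged2 followed among the higher genes. Ift46 sums were higher with Ttr in 12 of 15 clones and lower in 2, with medians of 52.9 and 0 CPM (log2 5.77 ± 2.21 SE, edgeR adjusted p = 1.00), and passed in DESeq2 and limma. Maged2 was higher in 14 and lower in 1, with medians of 101.7 and 2.75 CPM (log2 4.26 ± 1.66 SE, edgeR adjusted p = 1.00), and passed in DESeq2. The lowest p among lower genes belonged to Zpr1 (log2 -6.38 ± 2.27 SE), Cops6, a subunit of the COP9 signalosome (-4.12 ± 1.79), and Phactr3 (-4.37 ± 1.91), all at an edgeR adjusted p of 1.00 and all past the threshold in DESeq2. Pura, the remaining limma call, was higher at log2 4.23 there.

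**Figure D5:**
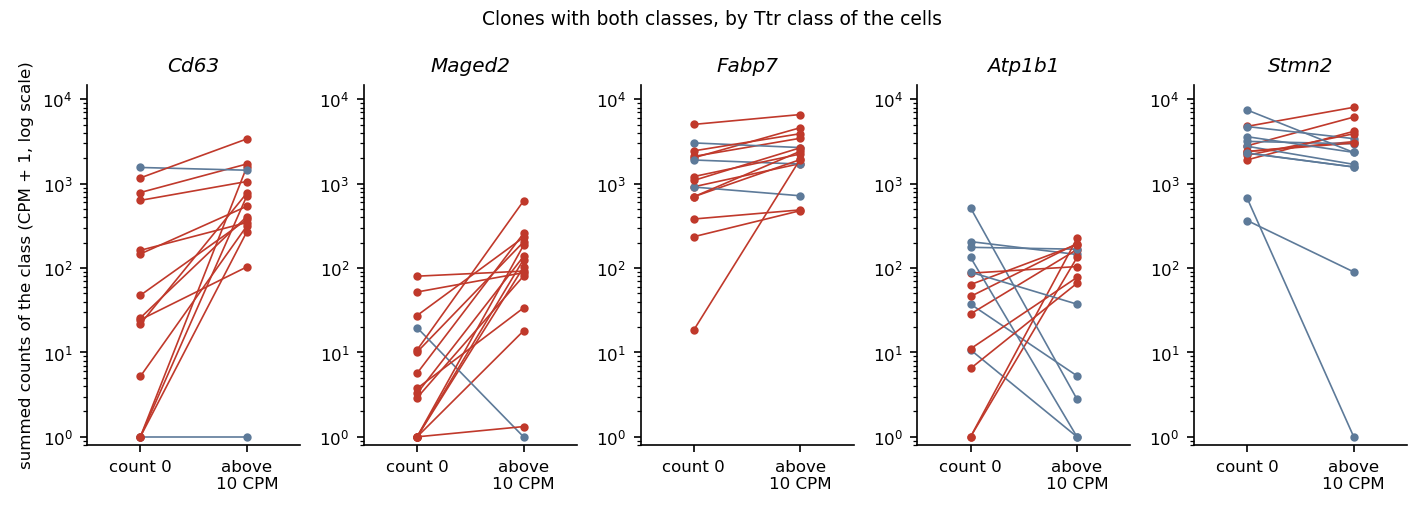
Summed level (CPM plus 1, log scale) of 5 genes in the Ttr-zero and the Ttr-expressing cells of each of the 15 clones with both classes; lines join the classes of a clone, red where the Ttr-expressing cells are higher and blue otherwise. Cd63 is higher in 13 and Maged2 in 14 of 15 clones, while Atp1b1 is higher in 8 and Stmn2 in 6.

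No neuron or progenitor gene passed the edgeR test within clones, where no gene of any kind passed. Fabp7 had a log2 fold change of 0.78 ± 0.38 SE (edgeR p = 0.0376, adjusted p = 1.00) and was higher with Ttr in 12 of 15 clones, at medians of 2249 and 1094 CPM, and Pea15a, the next radial glia gene by p, was at -1.20 ± 0.94. Stmn2 stood at -0.55 ± 0.36 and Fezf2, a factor of deep-layer neurons, at -1.34 ± 1.76. Of the other lists the leading members were Insm1 (2.39 ± 2.29) and Hes6 (0.92 ± 1.86) for intermediate progenitors, Zic2 (0.07 ± 1.75) and Reln (-0.02 ± 5.89) for Cajal-Retzius cells, Olig2 (1.21 ± 2.10) and Olig1 (0.54 ± 1.78) for the oligodendrocyte lineage and Nr2f2 (1.42 ± 1.27) for the dorsal forebrain. For BMP and Wnt response they were Id2 (1.44 ± 1.40) and Id4 (1.55 ± 1.82), for the cell cycle Mcm5, a replication helicase subunit (6.51 ± 2.60, edgeR p = 0.0124), which had the smallest adjusted p of all genes in DESeq2 (log2 8.00, adjusted p = 5.51e-06), and Mki67 (1.23 ± 1.69), and for immediate early genes Fos (-2.60 ± 1.83) and Egr1 (1.39 ± 1.61). Thra (-0.16 ± 0.97) led the thyroid hormone list and Rfx3 (0.04 ± 1.70) was the tested cilia gene. All had an edgeR adjusted p of 1.00, and no mesenchyme, GABAergic, endoderm, eye, microglia or pluripotency gene passed the filter on low counts.

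The 27 Ttr-expressing cells in clones without a Ttr-zero cell enter only when clones are compared with each other. With plate as a term and no clone block, 0 of 10908 genes passed (0.00%), 1.30% were higher and 2.23% lower at an unadjusted p below 0.05, and the smallest edgeR adjusted p was 0.173. Of the choroid plexus list 9 members were tested, 2 at an unadjusted p below 0.05 higher (Trpm3, log2 2.81 ± 0.92 SE, and Krt18, 2.61 ± 0.89) and 1 lower (Slc31a1, -1.99 ± 0.86), with a list median of 0.13 against -0.15 over all genes. Of the hem list 8 were tested, 7 above 0 with a median of 0.50, and Lmx1a (3.26 ± 1.29) was the member at an unadjusted p below 0.05. All 7 tested mesenchyme members were above 0, with a median of 0.99. Col5a1, a collagen gene (log2 4.62 ± 1.04), and Abhd5, a lipase cofactor (4.66 ± 1.08), had the smallest p of all, each at an edgeR adjusted p of 0.173. In this comparison class, clone and depth move together and cannot be told apart.

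Measures of library quality did not pass a test within the same clones. Detected genes at 100000 counts were 4893 ± 2411 (SD) with Ttr and 3877 ± 1367 (SD) without, a difference of 1016 over 13 clones (two-sided exact sign-flip permutation test, p = 0.0984, adjusted over 5 measures 0.465), higher in 9. The log10 exon total differed by 0.201 (SD 0.789, 15 clones, exact permutation p = 0.347), the intron share by 0.853 percentage points (p = 0.846, exact permutation), the mitochondrial share by -2.06 (p = 0.372, exact permutation) and the share of the most abundant ID by -3.26 (p = 0.266, exact permutation). With any Ttr count as the criterion the difference in detected genes was 1397 (17 clones, exact permutation p = 0.00871, adjusted 0.0436). The part of library complexity in the higher shares of the lists was not tested.

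The 5 genes whose level most resembled that of Ttr over all kept cells were not of the choroid plexus list, though some of its members ranked high. Among 16334 genes counted in at least 20 cells the Spearman correlation of log2(CPM+1) was highest for Dlc1, a GTPase-activating protein (0.403), Col3a1 (0.396), the ribosomal pseudogene Rpl13-ps6 (0.388), B2m, the light chain of class I MHC (0.384), and Cdkn1a, a cell cycle inhibitor (0.381). At 100000 counts per cell the same coefficients were 0.212, 0.314, 0.142, 0.356 and 0.389, so those of Dlc1 and Rpl13-ps6 were lower at equal depth. Cdkn1a was counted in 83.3% of thinned Ttr-expressing and 47.8% of thinned Ttr-zero cells, B2m in 52.1% and 14.3%. Of the choroid plexus list Igf2, Krt8 and Otx2 had coefficients of 0.333, 0.326 and 0.279, and Lmx1a of the hem list had 0.241. At 100000 counts per cell these 4 genes were lower, at 0.210, 0.222, 0.195 and 0.202 in the same order. Reads of Rpl13-ps6 cannot be told from those of its parent gene with certainty.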

How the data were processed

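Exon and intron reads per gene were taken from the 2 deposited tables of whole-number counts, 1 column per cell and not normalized by the authors. The submitters' processing notes name STAR 2.7.9a, R 4.4.0 and GRCm39. The values count reads, not molecules, and the strand setting of the counting is not given in the sources used here. Cells were grouped by the labels. CPM, thinning and shares were computed in Python 3.11.15 (scipy 1.17.1). Exon counts were summed per clone and Ttr class and tested with edgeR 4.0.16 in R 4.3.3 (filterByExpr, TMM, quasi-likelihood test, Benjamini-Hochberg adjustment, Ttr left out). The clone was the block, since both classes of a pair come from the same labelled clone. DESeq2 1.42.0 and limma 3.58.1 were alternatives. Shares were tested over clones by permutation (100000 resamples where not exact).

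Genes were named by rule: all choroid plexus and hem members, the 2 tested members of smallest p of each other list, the 3 genes of smallest p in each direction, the 5 most correlated with Ttr, and Emx1. A few genes that this rule names are not reported here, though they are in the counts over lists. Other genes were named as background to these, after their values had been seen. The members and the 19 gene lists were chosen with earlier results of these data known. Ecrg4 was matched by the older ID under which the table lists it. Alternatives covered normalization, the filter on low counts, the Ttr threshold, depth, detected genes, plate and each clone left out. Cells with no clone label and cells under 1000 genes were left out.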

Additional observations from a re-analysis of the deposited data

Results flagged for a closer look

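In clone 17 the deepest of the 9 Ttr-expressing cells, with 13040432 exon counts, stood apart from the other 8: its gap to the next was 0.600 of the range, above Dixon's 95% critical value for 9 cells. Chance flags about 1 in 20 such groups. Ttr CPM of these cells was not flagged.

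Ttr intron reads, which chose neither class, were found in Ttr-zero cells above the limit that a count of 0 allows. Per 1000000 exon counts they came to 2.6 in clone 61, 0.789 in clone 13, 2.4 in clone 49, 7.23 in clone 66, 19.9 in clone 51, 21.3 in clone 43, 152.1 in clone 8, 252.3 in clone 57 and 105.4 in clone 20, and the cells of clones 57 and 20 held 490 and 731 such reads. Of these clones 49 and 57 hold both classes, so only their cells had entered the fit within clones. Without those cells edgeR called 0 genes within clones, as with them, with a smallest adjusted p of 0.312. That fit says nothing about the cells of the other clones.

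Among cells outside the comparison, a cell without a clone label held Ttr at 22.1 CPM, and a cell of clone 28 with 638 counted genes, below the minimum, held 34 Ttr exon reads (234.7 CPM).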

How the results depend on the processing

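In the reported fit within clones and in all 33 other edgeR settings run, edgeR called 0 genes. Among the 33 were each of the 15 clones left out in turn (lowest adjusted p 0.448). The 33 also hold the fit over all clones with a plate term and the fit without the replicate block (smallest adjusted p 0.838), neither of which compares within clones. The setting of at least 4 Ttr reads kept the same cells as the reported fit, so its result could not differ. DESeq2 called 70 and limma on mean log2(CPM+1) called 3, and the cause of this gap was not tested. Of 2348 fold changes of 73 named genes under alternatives, 1988 kept their direction and 360 did not, none of the latter past the threshold. The SN minus N difference in share was -18.9 points (permutation p = 0.0466) with cells of at least 2000 genes, -22.7 on plate 3 alone, and ran from -19.2 to -13.5 with each of 62 clones left out, where the permutation p ran from 0.0241 to 0.118 and was below 0.05 without any 1 of 17 clones. Green minus red was -2.75 points with any Ttr count and -1.20 above 100 CPM. Within clones the difference in detected genes was 1397 with any Ttr count, and that in intron share was -3.57 points above 100 CPM. The cause of these shifts was not tested. Shallow Ttr-zero cells limit what a count of 0 shows, and cells per clone are few.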
